A study of Mus musculus with 6 samples.

Results

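The nuclear factor I genes Nfia, Nfib, Nfic and Nfix and the COUP-TF genes Nr2f1, Nr2f2 and Nr2f6 were measured by 16 probes in sorted mouse forelimb cells. Every non-control probe that carries the name of 1 of these 7 genes was taken, out of 55681 non-control probes on the array. All 16 were well above background on all 6 arrays and none was saturated. Nfib, Nfic, Nfix and Nr2f2 were higher in Sox9-EGFP positive cells, by 1.48- to 2.90-fold at the probes that passed the test, and Nfia passed it in neither direction. Nr2f1 lay lower in Sox9-EGFP positive cells, by 0.95 and 0.87 on the log2 scale at its 2 probes, without passing the test on all 6 arrays.

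The samples were Sox9-EGFP positive and Sox9-EGFP negative mesenchymal cells, sorted by flow cytometry from the forelimb autopod, the future hand plate, of C57BL/6 mouse embryos at stage E11.5. Both groups came from Sox9-EGFP knock-in embryos, so the negative cells carry the reporter allele too. There were 3 samples per group, each pooled from about 10 autopods, hybridised to one-colour Agilent arrays. The labels do not say whether the 3 samples of a group came from separate litters, so p-values measure the spread between these samples, which may be technical.

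Nuclear factor I proteins bind DNA as dimers at the palindrome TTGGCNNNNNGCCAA and can activate or repress genes. They are known for roles in glia, lung, muscle and hair follicle, and in the mouse spinal cord Nfia acts downstream of Sox9 when glia form. COUP-TF proteins are orphan nuclear receptors that bind repeats of AGGTCA and often repress. Nr2f1 is known for patterning the cerebral cortex, Nr2f2 for vein identity and for growth of limb muscle, and Nr2f6 for restraining T cells.

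To show where each gene was measured, 1 probe per member is given here with its mm9 position, 5′ to 3′. Each name includes the base of the transcript at which the probe lies, as the files number it. The Nfia, Nfib and Nfix probes nearest the 5′ end are shown whole, at 60 bases. The others start at higher base numbers, may lie in untranslated sequence, and are shown by their first 30 bases.
Nfia probe at base 1068, chr4:97680930-97680989, plus strand: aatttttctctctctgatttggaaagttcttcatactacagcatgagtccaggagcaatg
Nfib probe at base 968, chr4:82144224-82144283, minus strand: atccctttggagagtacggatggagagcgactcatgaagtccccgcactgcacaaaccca
Nfix probe at base 1163, chr8:87250416-87250475, minus strand: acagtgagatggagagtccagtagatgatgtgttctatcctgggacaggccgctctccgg
Nfic probe at base 6114, chr10:80859057-80859116, minus strand: gctttttgttttgttttgtggacccgcctg
Nr2f1 probe at base 1883, chr13:78328723-78328782, minus strand: ctgatctgtaagtacattggaaaggaaaga
Nr2f2 probe at base 4119, chr7:77496873-77496932, minus strand: ggcccttttccttgtttgctttgtgttagc
Nr2f6 probe at base 2078, chr8:73898098-73898157, minus strand: tgtcatgggtatctggaaaggccactgcag

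Values are log2 signals relative to the 75th percentile of each array, and a difference is the positive mean minus the negative mean. A probe is called when limma's p, adjusted by the Benjamini-Hochberg method over all 26473 tested probes, is under 0.05. The sort was checked first on Sox9, the chondrogenic transcription factor whose locus carries the reporter. It had 3.52, 2.99 and 3.60 in positive samples, against -0.88, -0.999 and -1.13 in negative samples, a difference of 4.37 ± 0.20 (SE, limma, adjusted p = 0.000513). The 75th percentile was 126 intensity units on the array of positive replicate 1, against 385 to 478 units on the other 5. That array also had 24743 spots well above background, against 29800 to 35277. The 3 slides carried 1 positive and 1 negative array each. Summed chondrogenic markers were 307 to 339 in positive samples and 66.0 to 90.9 in negative samples, on a linear scale in units of the 75th percentile. Summed muscle precursor markers were 0.139 to 0.258 in positive samples and 0.597 to 1.31 in negative samples. Ectoderm markers summed to 22.3 to 36.8 in positive and 9.21 to 11.6 in negative samples. Of these, Krt8 and Krt18 were called higher, while Trp63 (1.01), Krt14 (-0.03) and Epcam (-0.43) were not called. Krt5 was not tested, and Cdh1 was above background on no array. Nerve and Schwann cell markers summed to 2.56 to 2.98 in positive and 14.9 to 17.1 in negative samples, and mesenchymal markers to 49.8 to 65.4 in positive and 119 to 138 in negative samples. Blood markers summed to 0.758 to 4.02 in positive and 1.71 to 37.3 in negative samples, with negative replicate 2 at 37.3. Among them Pf4 (-5.63) was called lower, with its signal above background on no positive array. The globins Hbb-y (-1.24), Hba-x (-1.055) and Hba-a1 (-2.435) were not called. The part of these cell types in the members' values was not tested.

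Of the 16 probes, 10 were called higher, 0 lower and 6 not called, where 7.96% of all tested probes were called higher, 13.7% lower and 21.6% in either direction. By limma 2 probes were lower at an unadjusted p under 0.05, the Nr2f1 probe at base 1883 and the Nr2f6 probe. Probes of 1 gene measure the same transcript pool and are not independent. By gene, 4 of 7 had at least 1 probe called higher, and 3 of 7 were called at their brightest probe, against 8.14% of 19454 gene names called higher by theirs. The median difference was 0.65 over the 16 probes and -0.10 over all tested probes. By probe, 9 of 12 Nfi probes were called higher with a median of 0.68, and 1 of 4 COUP-TF probes with a median of -0.62. These values depend on the probes per gene, as Nfib has 5 of the 12 and Nr2f1 2 of the 4. At their brightest probes Nfic and Nfix were called in the Nfi family and Nr2f2 among the COUP-TF genes. The groups did not overlap with positive higher at 11 of the 16 probes, where 15% of all tested probes did the same, and with positive lower at 1 probe, where 28.2% did. With 3 samples a group the count of calls depends on single arrays. On all 6 arrays 10 member probes and 5731 of all tested probes were called. Without positive replicates 1, 2 and 3 in turn, 12, 6 and 4 member probes were called. Without negative replicates 1, 2 and 3 in turn, 3, 5 and 2 were. Over all tested probes, 6449, 3599 and 2363 were called without the positive replicates and 2027, 3496 and 2036 without the negative ones. Nr2f2 and the Nfib probe at base 6549 kept their call without any 1 array, and the other 8 called probes lost it without at least 1. With no filter on dim probes Nr2f2 alone was called.

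**Figure D1:**
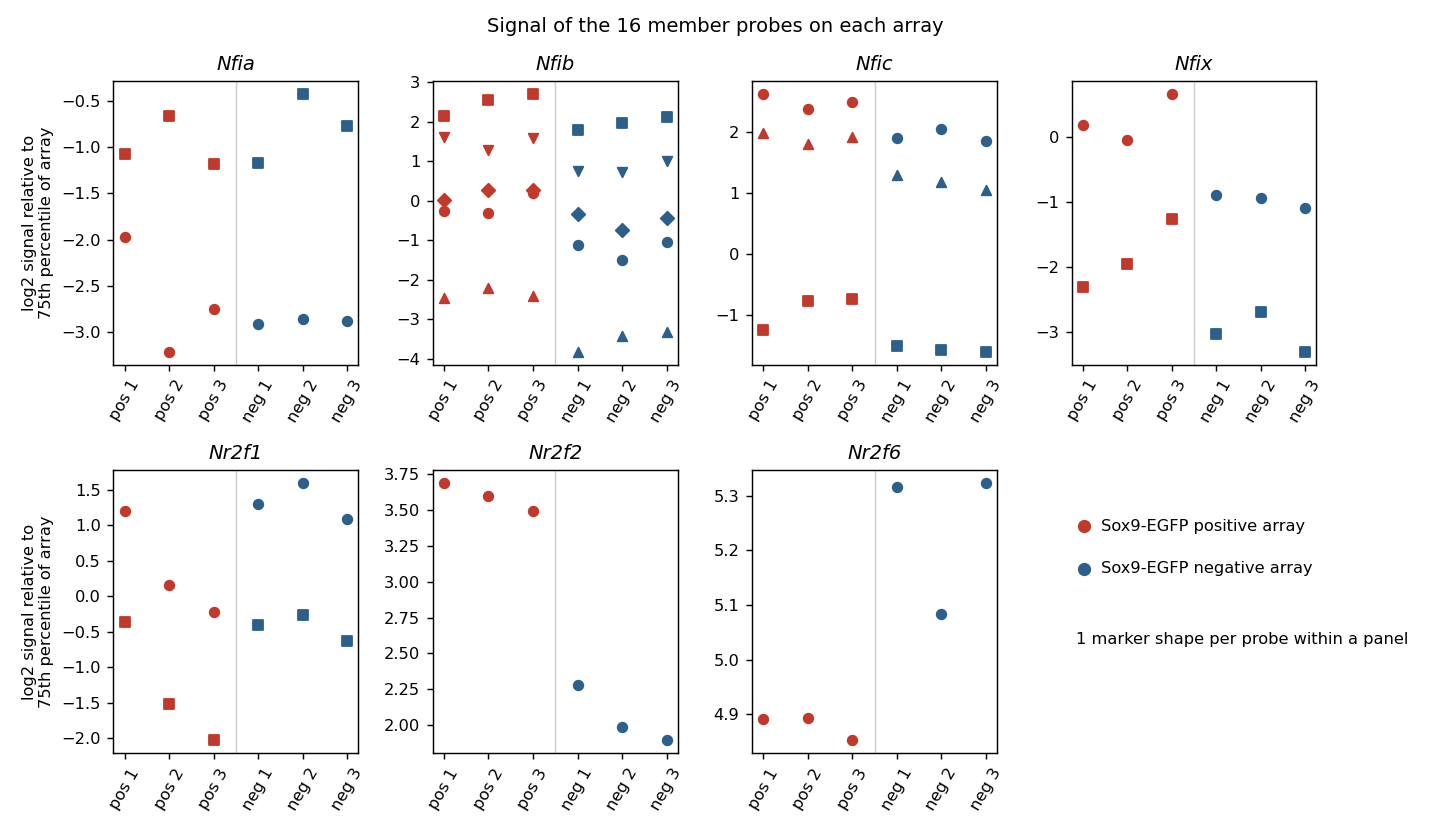
Log2 signal relative to the 75th percentile of the array (vertical axis, 1 scale per gene) for each of the 16 probes on each array (horizontal axis), with positive arrays in red left of negative arrays in blue. Nr2f2 sits at 3.49 to 3.69 on positive arrays and 1.89 to 2.28 on negative arrays, while Nr2f1 on positive replicate 1 lies at the height of the negative arrays.

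Nfix, the family member whose loss in mice disturbs brain and skeletal development, had the largest difference among the Nfi genes at its brightest probe. That probe, at base 1163, gave 0.17, -0.06 and 0.65 in positive samples, against -0.90, -0.95 and -1.09 in negative samples. The difference was 1.23 ± 0.21, or 2.35-fold (SE, limma, adjusted p = 0.0118). At base 5268 the values were -2.30, -1.96 and -1.26 in positive samples, against -3.03, -2.69 and -3.30 in negative samples. That difference was 1.17 ± 0.30, or 2.25-fold (adjusted p = 0.0419). It was not called at 0.90 with quantile normalization (adjusted p = 0.122), 0.49 with normexp or 0.47 in the authors' deposited values (adjusted p = 0.109 for both), while base 1163 was called at 1.21, 0.92 and 0.88. All positive arrays lay above all negative arrays at both probes, with positive replicate 3 highest each time. On single slides the difference at base 5268 ran between 0.39 and 1.77, and at base 1163 between 1.03 and 1.55. In bulk samples of this kind, more cells with the transcript and more transcript per cell cannot be told apart.

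Nfib, known for its part in lung and brain development, was called higher at 4 of its 5 probes. At base 968 it had -0.27, -0.30 and 0.21 in positive samples, against -1.12, -1.49 and -1.05 in negative samples, a difference of 1.10 ± 0.20 (2.14-fold, adjusted p = 0.0159). At base 6549 it had -2.47, -2.21 and -2.42 in positive samples, against -3.82, -3.42 and -3.33 in negative samples, a difference of 1.15 ± 0.18 (2.23-fold, adjusted p = 0.00903). No positive value fell within the negative range at either probe. The difference at base 6549 was not called under other scalings, at 0.86 with quantile normalization (adjusted p = 0.0731), 0.36 with normexp (adjusted p = 0.078) and 0.35 in the authors' deposited values (adjusted p = 0.0845), while that at base 968 was called at 1.03, 0.81 and 0.77. At base 8212 the values were 0.02, 0.26 and 0.26 in positive samples, against -0.35, -0.75 and -0.43 in negative samples, a difference of 0.69 ± 0.16 (1.61-fold, adjusted p = 0.0309). At base 8687 they were 1.61, 1.27 and 1.59 in positive samples, against 0.74, 0.73 and 0.99 in negative samples, a difference of 0.67 ± 0.16 (1.59-fold, adjusted p = 0.031). The second of these calls was lost with the slide as a block, at an adjusted p of 0.0534.

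The brightest Nfib probe, at base 2799, was not called. It gave 2.14, 2.54 and 2.70 in positive samples, against 1.79, 1.95 and 2.11 in negative samples. Positive lay above negative on every array here too, by 0.51 ± 0.19 (1.42-fold, 95% interval 0.05 to 0.97, limma adjusted p = 0.108). The call was made without positive replicate 1 (0.67, adjusted p = 0.0323) and with array weights (0.69, adjusted p = 0.0132). It was also made with normexp (0.73, adjusted p = 0.0447) and in the authors' deposited values (0.71, adjusted p = 0.0494). Quantile normalization did not give it (0.745, adjusted p = 0.0645). Differences of the Nfib probes were compared within arrays, over the 10 pairs of its probes. The probe at base 968 differed between the groups by 0.59 more than that at base 2799, and the probe at base 2799 by 0.65 less than that at base 6549, with no overlap between the arrays of the groups in either pair. Over all 16 pairs of probes of 1 gene, 4 pairs had no overlap, all of them in Nfib. The exact permutation p was 0.1 for each of these 4, the smallest that 3 against 3 arrays allow, and 0.4 after adjustment over the 16 pairs.

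Nfic, known for its role in tooth root formation in mice, was called higher at all 3 of its probes, with smaller differences. At base 6114 it had 1.98, 1.79 and 1.91 in positive samples, against 1.28, 1.17 and 1.05 in negative samples, a difference of 0.73 ± 0.13 (1.65-fold, adjusted p = 0.0144). The brightest probe, at base 1473, had 2.61, 2.38 and 2.49 in positive samples, against 1.90, 2.04 and 1.85 in negative samples, a difference of 0.56 ± 0.13 (1.48-fold, adjusted p = 0.0309). At base 5808 the values were -1.24, -0.77 and -0.74 in positive samples, against -1.50, -1.56 and -1.59 in negative samples, a difference of 0.63 ± 0.17 (1.55-fold, adjusted p = 0.0456). The groups did not overlap at any Nfic probe. At base 5808 the call was lost at 0.48 with quantile normalization (adjusted p = 0.174), 0.36 with normexp (adjusted p = 0.148) and 0.34 in the authors' deposited values (adjusted p = 0.164). The other 2 probes were called under these 3 scalings, at 0.74 to 0.90.

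Nfia, which promotes glial fate in the spinal cord, was not called at either of its 2 probes. At base 5567 it had -1.08, -0.67 and -1.18 in positive samples, against -1.17, -0.43 and -0.77 in negative samples, a difference of -0.19 ± 0.24 (95% interval -0.77 to 0.40, adjusted p = 0.629). At base 1068 it had -1.97, -3.21 and -2.75 in positive samples, against -2.91, -2.86 and -2.88 in negative samples, a difference of 0.24 ± 0.31 (95% interval -0.52 to 0.995, adjusted p = 0.631). The groups overlapped at both probes. The sign at base 1068 turned to -0.10 without positive replicate 1. The intervals reach 0.40 and 0.995, so an Nfia difference of the size seen for Nfic is within at least 1 of them.

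**Figure D2:**
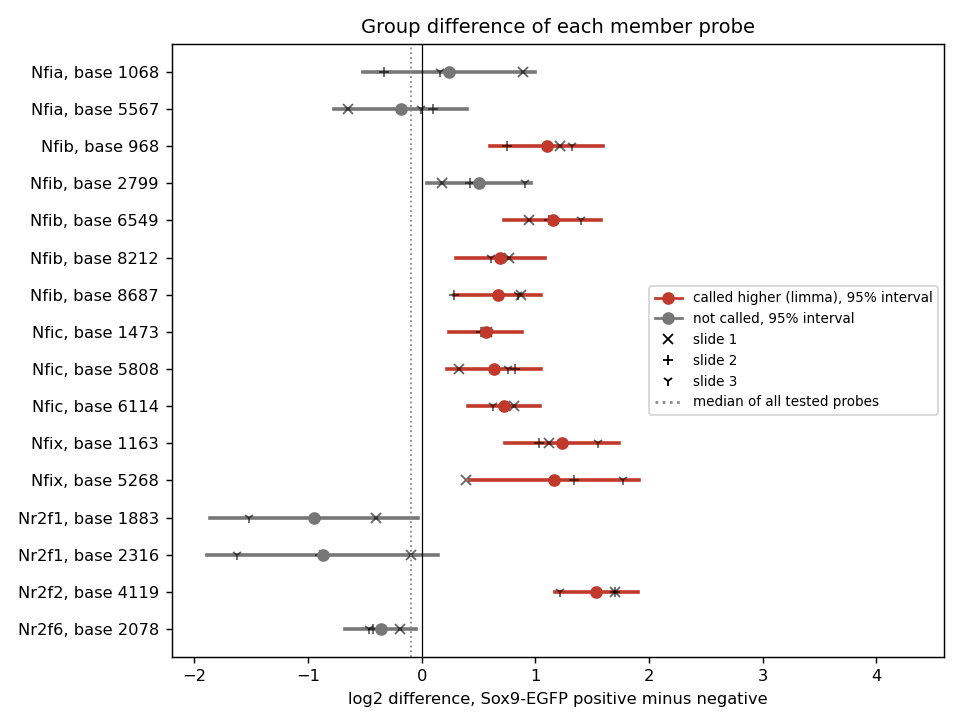
Log2 difference, Sox9-EGFP positive minus negative (horizontal axis), of each member probe (vertical axis, gene and base of the transcript), with its 95% interval and the differences within the 3 slides. The 10 probes called higher are red and lie at 0.56 to 1.54, and the dotted line at -0.10 is the median of all tested probes.

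Nr2f2, the COUP-TF member with the largest difference, had 3.69, 3.60 and 3.49 in positive samples, against 2.28, 1.99 and 1.89 in negative samples. The groups were separated by more than the spread within either of them. The difference was 1.54 ± 0.15, or 2.90-fold (SE, limma, adjusted p = 0.00254), and it was 1.70, 1.70 and 1.21 within the 3 slides. Nr2f2 was called in the same direction under each of the 18 alternative settings, with differences of 1.41 to 1.79. The gene has only 1 probe on this array, so no second probe bears on the value.

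Nr2f2 is a marker of venous and lymphatic endothelium, whose other markers were measured beside it. Lyve1 and Prox1, which mark lymphatic vessels, were above background on no array. The summed level of the 5 venous and lymphatic markers was 49.2 to 60.5 in positive samples and 130 to 143 in negative samples, most of it Nrp2. Of the 7 general endothelial markers, Tek, Tie1 and Emcn were above background on no array, and the sum was 2.84 to 8.0 in positive samples and 1.93 to 4.99 in negative samples. The part of endothelial cells in the Nr2f2 values was not tested.

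Nr2f1, the closest relative of Nr2f2 among the members, lay on the other side. Its probe at base 1883 gave 1.19, 0.16 and -0.22 in positive samples, against 1.30, 1.60 and 1.09 in negative samples. The difference was -0.95 ± 0.38 (95% interval -1.86 to -0.04, adjusted p = 0.125). At base 2316 the values were -0.36, -1.52 and -2.03 in positive samples, against -0.40, -0.26 and -0.62 in negative samples. That difference was -0.87 ± 0.42 (95% interval -1.89 to 0.15, adjusted p = 0.19). Positive replicate 1 alone lay within the negative range at both probes, and the other 2 positive arrays lay below every negative array.

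Without positive replicate 1 both Nr2f1 probes were called lower, at -1.36 (adjusted p = 0.0123) and -1.34 (adjusted p = 0.0121), where 14.9% of all tested probes were called lower on those 5 arrays. With array quality weights they were also called, at adjusted p = 0.00902 and 0.0126. Positive replicate 1 is the dim array. Its summed mesenchymal markers were 65.4, against 50.9 and 49.8 on the other positive arrays, and its summed endothelial markers 8.0, against 2.98 and 2.84. On the log2 scale Prrx1 was 4.3 there, against 3.0 and 2.9, and the other mesenchymal markers differed less. Kdr was 3.0, against 1.5 and 1.4, while the endothelial marker Pecam1 was -3.7, against -3.7 and -3.1. The part of these differences in the Nr2f1 values was not tested.

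Nr2f6 had 4.89, 4.89 and 4.85 in positive samples, against 5.32, 5.08 and 5.32 in negative samples. Positive lay below negative on every array by a small amount, -0.36 ± 0.13 (95% interval -0.67 to -0.05, adjusted p = 0.0934). The sign depended on the scaling, as the difference was 0.02 with quantile normalization, 0.04 with normexp background correction and quantile normalization, and 0.03 in the authors' deposited values. In the scaling used here, Nr2f6 was called lower with array weights (-0.41, limma adjusted p = 0.0248). The same call was made with a robust variance model with a trend (-0.36, adjusted p = 0.0432).

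Members of 1 family were then compared by their within-array ratio at the brightest probes, over 9 pairs, to ask whether their group differences differ. The log2 ratio of Nr2f1 over Nr2f2 was -2.50, -3.43 and -3.72 on positive arrays, against -0.98, -0.39 and -0.81 on negative arrays. Every positive array lay below every negative one, with a difference of -2.49 (95% interval -3.62 to -1.35). A linear scaling of an array cancels in this ratio, while an additive background does not. Positive replicate 1 lay below the negative arrays too, but nearer to them than the other positive arrays. The part of its dim signal in this ratio was not tested. The ratio of Nr2f2 over Nr2f6 was higher on positive arrays by 1.90 (95% interval 1.54 to 2.26), also without overlap.

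Within the Nfi family, the ratios of Nfia, Nfib and Nfic over Nfix were lower on positive arrays by -1.42, -0.73 and -0.67 on the log2 scale, each without overlap. With normexp background correction and quantile normalization the last 2 shrank to -0.19 and -0.15, and the first was -1.15. The ratio of Nfia over Nfib differed by -0.69 without overlap. For Nfib over Nfic the difference was -0.06, with a 95% interval of -0.76 to 0.64 that leaves room for a difference either way. Pairs with Nfib use its probe at base 2799, whose group difference of 0.51 was the smallest of its 5 probes. The Nfib probes at bases 968 and 6549 differed by 1.10 and 1.155, beside 1.23 for Nfix at its brightest probe. Those at bases 8212 and 8687 differed by 0.69 and 0.67. Ratios over Nfix with these other Nfib probes were not tested. In all, 6 of the 9 pairs had no overlap, each with an exact two-sided permutation p of 0.1, the smallest possible with 3 against 3 arrays, and 0.15 after adjustment over the 9 pairs, so no pair passes a threshold of 0.05 by this test.

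**Figure D3:**
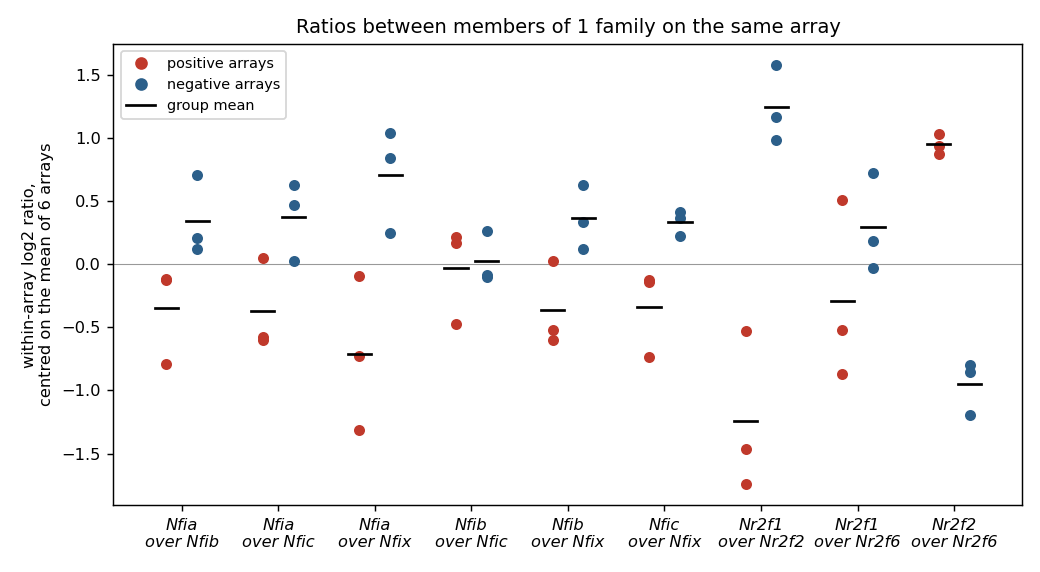
Within-array log2 ratio between the brightest probes of 2 members of 1 family, centred on the mean of the 6 arrays (vertical axis), for the 9 pairs (horizontal axis), with positive arrays left of negative arrays and group means as black bars. The 2 groups lie farthest apart for Nr2f1 over Nr2f2, by -2.49, and overlap for Nfib over Nfic, at -0.06.

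Other receptors of the NR2 group and known partners were read against the 8.14% of gene names called higher and the 14.9% called lower. Of 9 further NR2 receptors 5 were measured, and 0 were called higher and 0 lower, with a median difference of 0.17 beside -0.11 over all gene names. Rxrb, a partner receptor for retinoid and other signals, had a difference of -0.04 ± 0.17 (adjusted p = 0.898), and Nr2c1 one of 0.21 ± 0.15 (adjusted p = 0.373). By limma 0 of the 5 had an unadjusted p under 0.05 as well, and the smallest adjusted p was 0.318. Of 6 COUP-TF partners 5 were measured, with 1 called lower, 0 higher and a median of -0.25, so both lists lay near the shares over all gene names. That 1 was Bcl11b, a zinc finger protein that binds COUP-TF proteins, at -0.53 ± 0.15 (adjusted p = 0.0493). Its relative Bcl11a had -0.41 ± 0.16 (adjusted p = 0.111). The Nfi partner Ski had -0.04 ± 0.18 (adjusted p = 0.895).

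Among genes linked to COUP-TF control in other tissues, lower calls outnumbered higher ones. Of 10 such genes 8 were measured, 4 were called lower and 1 higher, where 14.9% and 8.14% of gene names were, and their median was -0.50. Nrp2, a semaphorin and VEGF coreceptor, had 5.23, 5.56 and 5.49 in positive samples, against 6.97, 6.84 and 6.90 in negative samples, a difference of -1.48 ± 0.14 (adjusted p = 0.00227). Angpt1, a ligand of the endothelial receptor Tek, fell by 3.74 ± 0.17 (adjusted p = 0.000527), with 2 of the 3 positive arrays above background. The cell cycle factor E2f1 fell by 1.25 ± 0.18 (adjusted p = 0.00732) and Nrp1 by 0.70 ± 0.15 (adjusted p = 0.0217). Notch1, a receptor whose signalling Nr2f2 restrains in veins and the only gene of the list called higher, was named after its value was seen and had 1.02 ± 0.22 (adjusted p = 0.0227). Its ligand Jag1 had 0.55 ± 0.24 (adjusted p = 0.157) and Eya1 -0.30 ± 0.30 (adjusted p = 0.52). Without positive replicate 1 Eya1 was called lower at -0.64 (adjusted p = 0.0258), and with array weights at -0.60 (adjusted p = 0.0359).

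Genes linked to NFI control in other tissues went both ways. Of 12 such genes 7 were measured, 2 were called higher and 1 lower, with a median of 0.27, beside 8.14% and 14.9% of all gene names. Sox9, the basis of the sort, is 1 of the 2, which leaves a count near those shares. The muscle enolase Eno3 had 3.19, 3.29 and 3.06 in positive samples, against 2.54, 2.34 and 2.50 in negative samples, a difference of 0.72 ± 0.13 (adjusted p = 0.0156). Apcdd1, an inhibitor of Wnt signalling that lies downstream of Nfia in glia, had -3.90, -2.38 and -2.34 in positive samples, against 1.03, 1.26 and 1.68 in negative samples. It fell by 4.20 ± 0.45 (adjusted p = 0.00336), with its signal above background on only 2 positive arrays. Nfatc4 had 0.09 ± 0.14 (adjusted p = 0.681) and Ezh2 -0.35 ± 0.12 (adjusted p = 0.0969).

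Probes of other names within 200 kb of a member, by the mm9 positions in the files, gave 142 probes, of which 89 were tested, 10 called higher and 11 lower, shares near the 7.96% and 13.7% of all tested probes. Next to Nr2f2 1 of 4 tested neighbours was called, a transcript named ENSMUST00000080024 in the files, 59.0 kb away on the opposite strand. It had -0.23, 0.02 and -0.27 in positive samples, against -2.40, -1.89 and -2.98 in negative samples, a difference of 2.27 ± 0.29 (adjusted p = 0.00536). It thus differed in the same direction as Nr2f2, with no overlap between the groups. Near Nr2f1, Pou5f2 (1.28 ± 0.22, adjusted p = 0.0122) and an unnamed probe 74.3 kb away (A_55_P2246014, 1.22 ± 0.19, adjusted p = 0.00972) were called higher, opposite in sign to Nr2f1.

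At Nfix, 1 of 25 tested neighbours was called higher and 5 lower. The nearest of the called ones, ENSMUST00000098571, lies 0.209 kb from an Nfix probe on the other strand. It had 0.74, 1.19 and 1.11 in positive samples, against 1.93, 1.76 and 1.74 in negative samples, a difference of -0.80 ± 0.16 (adjusted p = 0.0211), so the 2 strands at this place differed in opposite directions. The other calls at Nfix were Syce2 (-1.20), Farsa (-0.72), Gadd45gip1 (-0.69) and Trmt1 (-0.44), all lower, and Dand5 (0.77), higher.

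At Nfic, 6 of 28 tested neighbours were called higher and 4 lower. The nearest, 2210404O07Rik, lies 0.981 kb away on the opposite strand and had 0.34, 0.43 and 0.74 in positive samples, against -0.46, -0.36 and -0.61 in negative samples. Its difference was 0.98 ± 0.16 (adjusted p = 0.0106), while its other tested probe gave 0.06 (adjusted p = 0.958). Zfr2 (2.27), Tle2 (1.89), a Groucho-type corepressor, Matk (1.66), ENSMUST00000051853 (1.55) and Celf5 (0.97) were also called higher. Dohh (-0.74), 2510012J08Rik (-0.68), Mrpl54 (-0.50) and Gna11 (-0.47) were called lower. Nr2f6 had 2 of 23 tested neighbours called, Dda1 (-0.61) and 5430437P03Rik (-0.48), both lower, and Nfia and Nfib had 0 called among 1 and 4 tested. Of the 21 called neighbours, 5 belong to a gene with another tested probe that was not called.

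**Figure D4:**
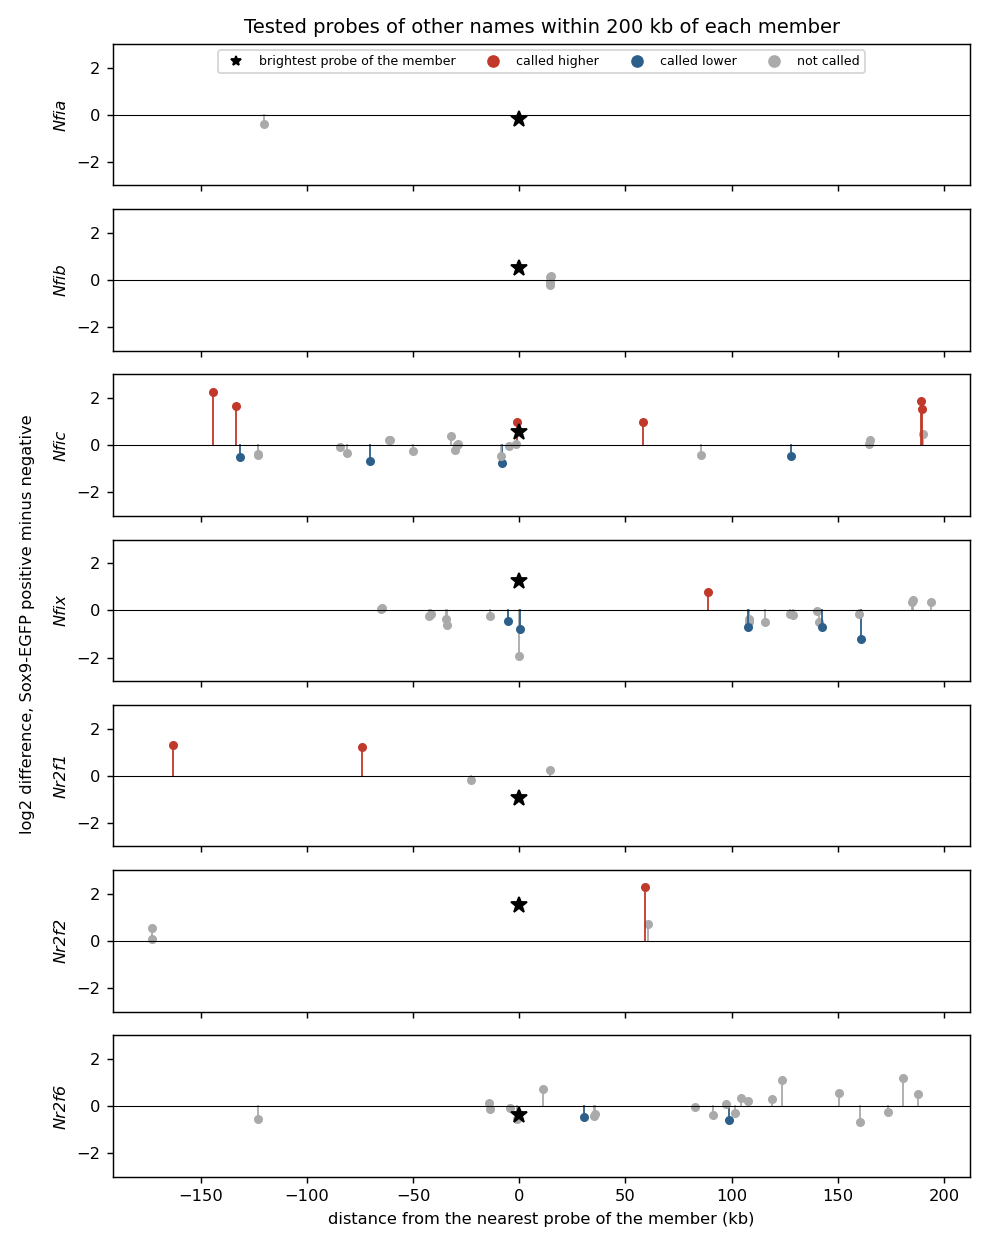
Log2 difference, Sox9-EGFP positive minus negative (vertical axis), of tested probes of other names by their distance from the nearest probe of each member (horizontal axis, kb), with the member's brightest probe as a star. The Nr2f2 star at 1.54 has a neighbour 59.0 kb away at 2.27, and the Nfic panel holds calls in both directions.

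For each member, the genes with the most similar values were found by the distance between mean-centred log2 values of the 6 arrays, among 11708 gene names above background on all of them. Nearest to Nr2f2 were Sema6a (distance 0.19), Rasl11b (0.20) and Pknox2 (0.23). Nearest to Nfix were Mgp (0.27), the gene of matrix Gla protein, a calcification inhibitor of cartilage, with Sh3d19 (0.30) and Snx32 (0.30). Nr2f1 was followed most closely by Dut (0.33), Pprc1 (0.43) and Hn1l (0.47), whose differences of -0.81, -0.77 and -0.77 were not called either. For Nfib these were Pla2g2c, Chst3 and Adssl1, for Nfic Map3k6, Zmynd15 and Selm, for Nfia Ppp6r1, Slc35d1 and Neil3, and for Nr2f6 Mtmr2, Mettl3 and Ddx3x, at distances of 0.07 to 0.32. Since all 6 arrays enter the distance, a shared group difference is enough to make values alike.

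Promoters, from 250 bases before to 50 after a gene's start, were taken from RefSeq on build GRCm38.p6 for 6 of the 7 members, at 10 start sites. They were searched on both strands for TTGGC, the half-site within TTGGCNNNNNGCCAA, and for AGGTCA, the half-site within AGGTCANAGGTCA. Of the 10, 4 hold TTGGC, namely Nr2f2 and 3 of the 4 Nfix promoters, where 46.7% of 32851 promoters do. AGGTCA is in 2 of the 10, both of Nfix, where 16.3% of all do, and the full palindrome and the direct repeat, found in 0.0365% and 0.0396% of all, are in none. The Nr2f2 promoter and the Nfix promoter with most TTGGC matches are shown because these genes had the largest differences of their families, with TTGGC and its reverse complement in capitals.
Nr2f2 promoter, chr7:70366697-70366996, minus strand: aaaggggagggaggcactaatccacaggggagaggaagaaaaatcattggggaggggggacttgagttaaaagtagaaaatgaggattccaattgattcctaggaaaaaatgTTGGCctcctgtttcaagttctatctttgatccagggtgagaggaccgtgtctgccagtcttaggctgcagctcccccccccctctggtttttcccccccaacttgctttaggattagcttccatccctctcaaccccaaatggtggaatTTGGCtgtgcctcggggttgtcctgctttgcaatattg
Nfix promoter, chr8:84772826-84773125, minus strand: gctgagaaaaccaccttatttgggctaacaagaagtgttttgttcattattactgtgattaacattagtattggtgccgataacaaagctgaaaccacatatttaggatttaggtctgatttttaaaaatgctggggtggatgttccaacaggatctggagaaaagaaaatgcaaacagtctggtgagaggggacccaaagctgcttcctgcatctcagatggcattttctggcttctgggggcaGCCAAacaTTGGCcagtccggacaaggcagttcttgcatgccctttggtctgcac

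**Figure D5:**
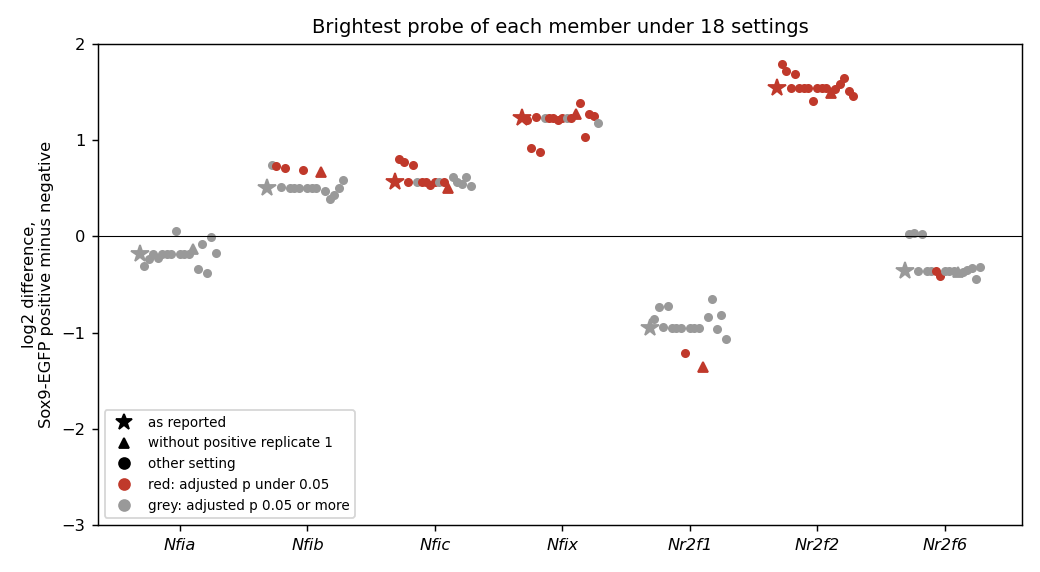
Log2 difference, Sox9-EGFP positive minus negative (vertical axis), of the brightest probe of each member (horizontal axis) under 18 settings of scaling, filtering, model and left-out arrays, with the reported value as a star and red for adjusted p under 0.05. Nr2f2 is red throughout at 1.41 to 1.79, and Nr2f1 turns red without positive replicate 1 (triangle, -1.36) and with array weights.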

How the data were processed

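RNA of the 6 samples was labelled with Cy3 and scanned, and the deposited spot intensity values come, per the file headers, from Feature Extraction 10.7.3.1 as run by the authors, corrected for background within an array. The deposited log2 values of the series table, with a median of 6.41 on every array, were normalized between arrays by the authors; no source used here states their background correction. Groups come from the sample titles. Spots of 1 probe were averaged, 3671 control spots and 16 probes with outlier spots were left out, and log2 signals were taken relative to the 75th percentile of each array. Probes well above background on all 3 arrays of a group were tested (26473), with limma 3.58.1 in R 4.3.3 on group alone, and the script was tested on simulated data. The precision is limited by the 6 arrays. Members, lists and tests were chosen with earlier results of these data known. Genes named are all members, the called members of each list (up to 4) with its 2 brightest uncalled ones, called neighbours and the 3 most similar genes; 1 list gene that this rule names is not reported here. Alternatives changed the scaling, background correction, filter, variance model, weights, slide or replicate block, probe choice, threshold and arrays. Deviations from the group mean correlated at -0.27, -0.46 and 0.29 for same-numbered samples, and at 0.56, 0.41 and 0.24 for arrays of 1 slide. The highest value of the same-numbered samples thus lay above the lowest value of arrays of 1 slide.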

Additional observations from a re-analysis of the deposited data

How the results depend on the processing

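The 3 samples per group and the dim array of positive replicate 1 limit these results. The 10 called member probes became 1 with no filter on dim probes, 3 with the brightest probe per gene name (of 7 probes) and 2 at a threshold of 0.01, and 2 to 12 when single arrays were left out. They became 7 with quantile normalization, 8 with normexp or the authors' deposited values, and 14 with array weights. Array weights added the Nfib probe at base 2799, called higher, and both Nr2f1 probes and Nr2f6, called lower. Of all 26473 tested probes, 6177 were called lower with array weights. Over all tested probes, 5731 calls became 3803 with quantile normalization, 1350 with no filter, 9598 with array weights, 1718 at 0.01, and 2027 to 6449 without single arrays. The 9 called list genes became 4 with no filter and 5 to 10 without single arrays, being 5 when negative replicate 1 or 3 or positive replicate 2 was absent. With the replicate block, 2 member probes, 1370 of all probes and 4 list genes were called. The same-numbered samples that this block pairs did not all deviate together (correlations -0.27, -0.46 and 0.29). The 6 pairs without overlap became 5 to 7. Reversed signs were seen for Nfia at base 1068 with quantile normalization (-0.005) and array weights (-0.028), and without single arrays (-0.097 to 0.523), and at base 5567 with array weights (0.058). They were seen for Nr2f6 with quantile normalization (0.021), normexp (0.040) and the authors' deposited values (0.027), and likewise for Rxrb (0.335, 0.343 and 0.327) and, without single arrays, at -0.143 to 0.077. Eya1 reversed with quantile normalization (0.053) and normexp (0.025), Ski with array weights (0.005) and without single arrays (-0.192 to 0.093), and Nfib over Nfic without single arrays (-0.180 to 0.165). The cause was not tested.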
